A study of Mus musculus with 4 samples.

Results

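The Hox genes encode homeodomain transcription factors that give cells their position along the body and limb axes. The 38 mouse Hox genes examined were those with a probe for one of their RefSeq transcripts on the array, among 37042 genes and unnamed transcripts measured. They were read by 41 probes, and 1 probe stood for each gene. Primary chondrocytes, which the methods describe as articular for mice of this age, came from 6-day-old C57BL/6J littermates. The genotypes were Rela fl/fl, in which both copies of the NF-κB subunit gene Rela are floxed, and Prrx1-Cre; Rela fl/fl (labelled cKO), in which Cre is also present and its promoter is active in undifferentiated limb mesenchyme. Cells of each genotype were cultured for 3 days without TNF or with 10 ng per ml TNF, the cytokine that activates NF-κB. Each of these 4 conditions was measured on 1 array, and those of the Cre genotype are called cKO-labelled here. No condition therefore has a replicate, no test between conditions was run, and the number of arrays limits the precision.

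Mammalian Hox genes lie in 4 clusters, A on chromosome 6, B on chromosome 11, C on chromosome 15 and D on chromosome 2 in the mouse. Genes at matching places in the clusters form paralogue groups, numbered 1 to 13 from the 3′ to the 5′ end. Low-numbered groups act in anterior parts of the embryo and high-numbered groups in posterior parts. In the limb, the 5′ genes of clusters A and D pattern the upper arm or thigh, then the forearm or shank, and last the hand or foot, and group 13 belongs to the last of these. Connective tissue cells of the limb keep part of this code after birth and in culture.

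A signal below is the processed intensity of a probe divided by the 75th percentile of its array, so that 1 is that percentile. Signals of different probes have no common scale and were not set against each other. A difference is the log2 of a ratio between 2 arrays for the same probe. A gene was called where the difference was at least 1 and the brighter array was well above background. Where the dimmer array failed that flag, its value was set no lower than the dimmest flagged signal of that array, which makes the difference a bound. Over the same 399 probes with 10 spots each, the technical spread (SD) of a difference was 0.642 at the dimmest signals and 0.078 at the brightest. It covers spots of 1 array and leaves out the spread between cultures.

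The arrays had 75th percentiles of 589.3 to 632.6 intensity units, and 50.9% to 58.1% of their probes were well above background, with the higher shares on the cKO-labelled arrays. Bright patches held 1.04% to 10.7% of the spots, with the least on the treated cKO-labelled array. All 13 chondrocyte markers were well above background on all 4 arrays, as were 6 of 6 fibroblast markers, 3 of 5 leukocyte, 1 of 4 osteoblast, 1 of 6 skeletal muscle, 2 of 4 endothelial and 2 of 4 epidermal markers. Cartilage collagen Col2a1 had signals of 597.2, 609.9, 583.6 and 607.7 for untreated and TNF-treated Rela fl/fl cells and then untreated and TNF-treated cKO-labelled cells, the order used throughout. Its transcription factor Sox9 had signals of 14.2, 13.6, 12.7 and 12.4, and the proteoglycan gene Acan had 100.5, 81.9, 66.0 and 58.85. Rela itself had signals of 28.4, 34.9, 34.0 and 40.2, so each cKO-labelled array was above its Rela fl/fl counterpart. Whether the Rela probe lies in the floxed part of the gene was not determined, and a probe outside that part would not show the deletion. Xist, transcribed from the inactive X chromosome, had signals of 0.719 and 0.755 on the Rela fl/fl arrays and was not well above background on the cKO-labelled arrays. The Y-linked genes Ddx3y (1.31, 1.30, 3.67 and 4.24) and Eif2s3y (1.78, 1.84, 6.24 and 6.54) stood above the Rela fl/fl values on both cKO-labelled arrays. The genotype label and the sex of the cells therefore cannot be told apart. The chemokine gene Ccl2 had signals of 0.9195, 29.8, 0.916 and 8.23 and the NF-κB inhibitor gene Nfkbia 3.50, 9.98, 3.355 and 6.12, so both were higher with TNF in both genotypes. Of 8 NF-κB target genes listed, 6 were called higher with TNF in Rela fl/fl and 3 in cKO-labelled cells.

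Of the 38 Hox genes, 22 (57.9%) were well above background on all 4 arrays, beside 55.3% of all genes. Another 10 were above it on some arrays and 6 on none. The count was 24 and 26 on the untreated and treated Rela fl/fl arrays and 30 and 29 on the cKO-labelled arrays. Over all 37042 genes it was 21451 and 22580, then 23562 and 23837, so it was likewise higher on the cKO-labelled arrays. Cluster A had 8 of 10 genes above background throughout and cluster C 7 of 9. Cluster D had 4 of 9 and cluster B 3 of 10. By paralogue group, 2 of 7 genes of groups 1 to 3, 10 of 15 of groups 4 to 8 and 10 of 16 of groups 9 to 13 were above background on all arrays. The 6 genes not well above background on any array were Hoxb1, Hoxd1 and Hoxd3 at the 3′ side, and Hoxb8, Hoxb13 and Hoxd12. Hoxb1, which acts in the hindbrain, was spotted 10 times, and its signals lay between 0.00685 and 0.0142 over the spots of all arrays. Hoxb13, known from the prostate and tail bud, had signals of 0.00768 to 0.0134. A probe not above background gives only a bound for its gene.

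**Figure D1:**
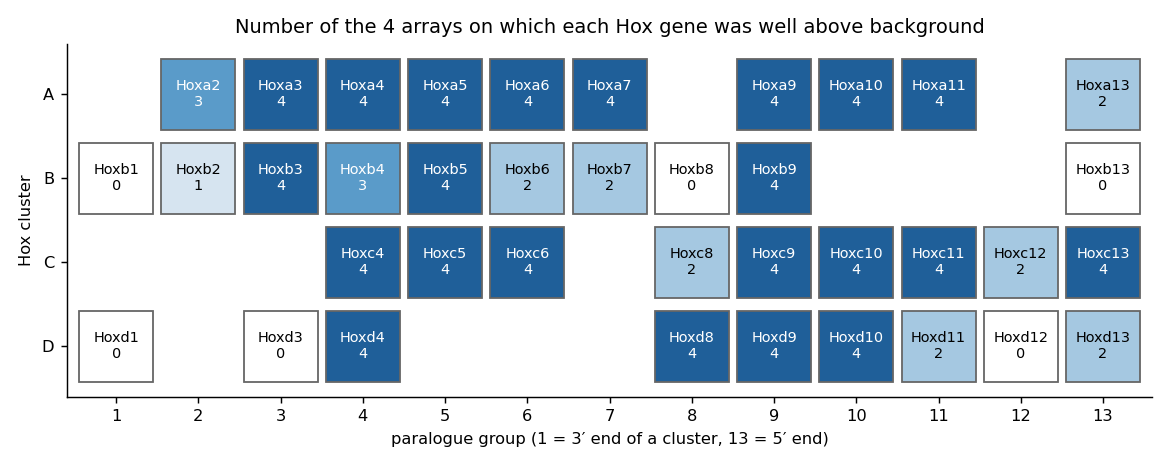
Grid of the 38 Hox genes, with the cluster on the vertical axis and the paralogue group on the horizontal axis. The number and the depth of blue give on how many of the 4 arrays the gene was well above background, and empty places hold no gene examined here. The run from Hoxa3 to Hoxa11, most of cluster C and the genes Hoxd8 to Hoxd10 were above background on all 4 arrays.

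In cluster A, Hoxa11 was the gene measured most often, since its probe was spotted 10 times on each array. Hoxa11 patterns the forearm and shank. Its mean signals were 9.20, 9.15, 9.31 and 9.84, with SDs over the 10 spots of 0.065, 0.041, 0.046 and 0.049 on the log2 scale. The spots ranged from 8.51 to 9.68 on the untreated Rela fl/fl array and from 9.33 to 10.35 on the treated cKO-labelled array, so the spots of these arrays overlapped. The antisense transcript Hoxa11os, from the opposite strand of the same locus, had signals of 6.985, 6.395, 6.56 and 6.60. It was the one of 2 measured noncoding RNAs of the clusters that was above background on all arrays. The other, Hoxd3os1, was above it only in cKO-labelled cells.

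Hoxa10, its neighbour, acts in the upper arm and thigh. It had signals of 3.25, 3.42, 3.29 and 2.92 and was lowest on the treated cKO-labelled array. Hoxa9 had signals of 0.643, 0.604, 0.685 and 0.531, and its second probe 0.484, 0.431, 0.475 and 0.374. Both probes were lowest on that same array. Hoxa7 and the more 3′ genes of the cluster are best known from the trunk and its vertebrae. Hoxa7 had signals of 3.955, 3.95, 4.44 and 4.94 and was highest on the treated cKO-labelled array. Hoxa6 had signals of 0.226, 0.203, 0.194 and 0.175, with the lowest on that array. Hoxa5, which acts in the neck, shoulder and lung, had signals of 0.483, 0.347, 0.509 and 0.519. Its lowest signal was on the treated Rela fl/fl array. The spot on the untreated Rela fl/fl array lay in a bright patch. Hoxa4 had signals of 0.0856, 0.0766, 0.0866 and 0.0892, within 1 technical spread of each other in all 4 comparisons. Hoxa3, a gene of the pharyngeal arches, had signals of 0.804, 0.830, 1.11 and 0.801 and stood highest on the untreated cKO-labelled array. Hoxa2, which acts in the second arch and hindbrain, had signals of 0.0550, 0.0562, 0.121 and 0.101. Only the first of these was not well above background, and both cKO-labelled arrays were higher than both Rela fl/fl arrays.

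Hoxa13, the 5′ gene of the cluster that patterns the hand and foot, was read by a pair of probes that disagreed. The probe with the higher mean had signals of 0.761, 0.0308, 0.0973 and 0.0208 and was well above background without TNF and not with it. Both of its signals above background came from spots in bright patches. The second probe had signals of 0.0858, 0.0662, 0.0743 and 0.0819, was well above background on all 4 arrays and lay in no patch. Its differences were -0.38 and 0.14 with TNF in Rela fl/fl and cKO-labelled cells and -0.21 and 0.31 between genotypes without and with TNF. The values of Hoxa13 in the counts below come from the first probe, by the rule that the brighter probe stands for a gene.

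The promoters of Hoxa11, the cluster A gene with the most spots, and of Hoxa13, on which several of the calls below rest, are shown because they were unlike in sequence. Both run 5′ to 3′ on the strand of the gene from 250 bases before its start to 50 after it, as given by RefSeq for GRCm38.p6, with CG pairs in capitals. Hoxa11 (chr6:52245761-52246060, minus strand) had 15 CG pairs and a GC content of 51.0%. Hoxa13 (chr6:52260831-52261130, minus strand) had 45 CG pairs and a GC content of 81.0%.
Hoxa11: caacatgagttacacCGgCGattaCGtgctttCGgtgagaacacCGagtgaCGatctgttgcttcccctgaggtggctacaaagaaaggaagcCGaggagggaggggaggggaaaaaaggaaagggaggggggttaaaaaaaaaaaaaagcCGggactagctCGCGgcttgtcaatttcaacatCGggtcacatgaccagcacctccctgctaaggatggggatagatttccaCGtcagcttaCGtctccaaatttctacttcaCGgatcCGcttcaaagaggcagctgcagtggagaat
Hoxa13: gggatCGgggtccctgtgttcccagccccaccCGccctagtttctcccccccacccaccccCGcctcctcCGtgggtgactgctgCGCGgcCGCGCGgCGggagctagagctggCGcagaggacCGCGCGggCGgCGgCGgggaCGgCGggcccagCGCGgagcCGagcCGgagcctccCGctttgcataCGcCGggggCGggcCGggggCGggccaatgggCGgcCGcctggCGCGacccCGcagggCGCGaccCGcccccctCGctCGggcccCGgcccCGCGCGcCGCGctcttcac
Promoters of this kind were at hand for 22 of the 38 members. Their median GC content was 56.8%, beside 52.7% for 27025 mouse promoters of the same length, and their median number of CG pairs was 13.5 beside 7.0. The NF-κB consensus, searched on both strands, was found in 1 of the 22 (4.55%), in Hoxa13, and in 2211 (8.18%) of all 27025 promoters. The match in Hoxa13 read gggaggctcc on the opposite strand, at bases 171 to 180 of the sequence shown. A match is only a description of these letters.

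In cluster B, 3 genes were above background on all arrays. Hoxb3 had signals of 0.2785, 0.2565, 0.302 and 0.282, and its second probe was not well above background on any array. Hoxb5 had signals of 0.0810, 0.07665, 0.0683 and 0.06515, with both cKO-labelled arrays below both Rela fl/fl arrays. Hoxb9 had signals of 0.0838, 0.0854, 0.0889 and 0.104. These Hoxb5 and Hoxb9 differences all lay within 2 technical spreads. Hoxb4, best known from blood stem cells, had signals of 0.0359, 0.746, 0.140 and 0.112. It was not well above background on the first array, and the second value came from a spot in a bright patch. Hoxb7 had signals of 0.0261, 0.0269, 0.0688 and 0.0883 and was well above background only on both cKO-labelled arrays. The same held for Hoxb6, Hoxc12 and Hoxd13, while Hoxd11 was above it only on both Rela fl/fl arrays, on 1 of them in a patch. The dimmest signal flagged as well above background in Rela fl/fl cells was 0.0527 untreated and 0.0369 treated, against 0.0259 and 0.0267 in cKO-labelled cells, and the part of this difference in those 5 genes was not tested.

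Cluster C acts along the trunk and, for its 5′ genes, in the hindlimb. Hoxc4 had signals of 0.870, 0.880, 1.24 and 0.984, Hoxc6 had 5.002, 5.28, 6.39 and 5.47, and Hoxc10 had 1.57, 1.60, 1.86 and 1.63. All of them were highest on the untreated cKO-labelled array, where the Hoxc10 spot lay in a patch. Hoxc5 had signals of 0.121, 0.109, 0.159 and 0.138, with both Rela fl/fl arrays below both cKO-labelled ones. Its middle pair of values came from patches. Hoxc9 had signals of 3.85, 3.45, 4.245 and 4.16. Hoxc11, a hindlimb gene, had signals of 0.297, 0.304, 0.335 and 0.357, the second from a spot in a patch. Hoxc13, known from hair follicles and nails, had signals of 0.2175, 0.189, 0.338 and 0.457. No array of Hoxc13 lay in a patch, and both cKO-labelled arrays were above both Rela fl/fl arrays for Hoxc9, Hoxc11 and Hoxc13. Over all clusters, 14 of the 22 members above background on every array were separated in this way, beside 24.1% of all such genes, and 2 in the opposite way, beside 16.8%. Under the other scalings the first count was 10 or 11, beside 22.5% to 25.4%. Only the order of the signals enters this count, with no limit on size. It includes Hoxa4, whose genotype differences of 0.018 and 0.22 had a technical spread of 0.269 each.

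In cluster D, 4 genes were above background on all arrays. Hoxd8 had signals of 0.7765, 0.860, 0.790 and 0.836. Hoxd9 had signals of 0.907, 0.795, 0.851 and 0.8045, the first from a patch. Hoxd10, which acts in the upper leg and its motor neurons, had signals of 0.266, 0.252, 0.256 and 0.276. The differences of these 3 genes stayed within 2 technical spreads in all 4 comparisons. Hoxd4, the most 3′ of them, had signals of 0.4705, 0.444, 0.541 and 0.552, with both cKO-labelled arrays higher.

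The first comparison asked which genes differed with TNF in Rela fl/fl cells. Of the 27 Hox genes that could be called, 1 was higher and 1 lower, beside 2.39% higher and 4.27% lower of all 23408 genes that could be called. Hoxb4 was at least 14.1-fold higher and Hoxa13 at least 20.6-fold lower with TNF, and both calls rested on a spot in a patch. Outside patches were 27 members, counting Hoxa11 and Hoxb1, which had 1 of 10 spots in a patch on the untreated Rela fl/fl array. Of these 27, 0 were called, and the differences lay between -0.20 and 0.15 for the 16 measured on both arrays. Of 23 members well above background on both arrays, 1 differed by more than 2 technical spreads, beside 19.6% of all such genes. That member was Hoxa5, lower by a log2 difference of -0.48 with its brighter spot in a patch. The median difference of the 23 was -0.08, beside 0.008 for all genes, and 8 were above 0 and 15 below. The cluster medians were -0.05 for A, -0.08 for B, 0.02 for C and -0.09 for D (-0.085). The 3 paralogue ranges had medians of -0.04, -0.08 and -0.075 from the 3′ to the 5′ genes.

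On the cKO-labelled arrays, 0 of 31 Hox genes that could be called were higher with TNF and 1 was lower, beside 1.02% and 4.46% of 24903 genes. The call was Hoxa13, at least 3.65-fold lower, again from the spot in a patch on the array without TNF, and it was not called with normexp (-0.39). Of 28 members measured on both arrays, 7 differed by more than 2 technical spreads, beside 27.1% of all such genes. Higher with TNF were Hoxa11, by 0.08 with a technical spread of 0.025, and Hoxc13, by 0.43 with a spread of 0.138. The Hoxa11 difference turned to between -0.03 and -0.01 without scaling, with quantile normalization, with normexp and in the authors' table, so its direction rested on the scaling. Lower were Hoxa3 (-0.47), Hoxa9 (-0.37), Hoxc4 (-0.33), Hoxc6 (-0.23) and Hoxc10 (-0.19), all under a 1.5-fold difference, and the Hoxc10 spot without TNF lay in a patch. The median of the 28 was -0.09, beside 0.056 for all genes. The sign of the members' median turned with quantile normalization and without the patches.

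**Figure D2:**
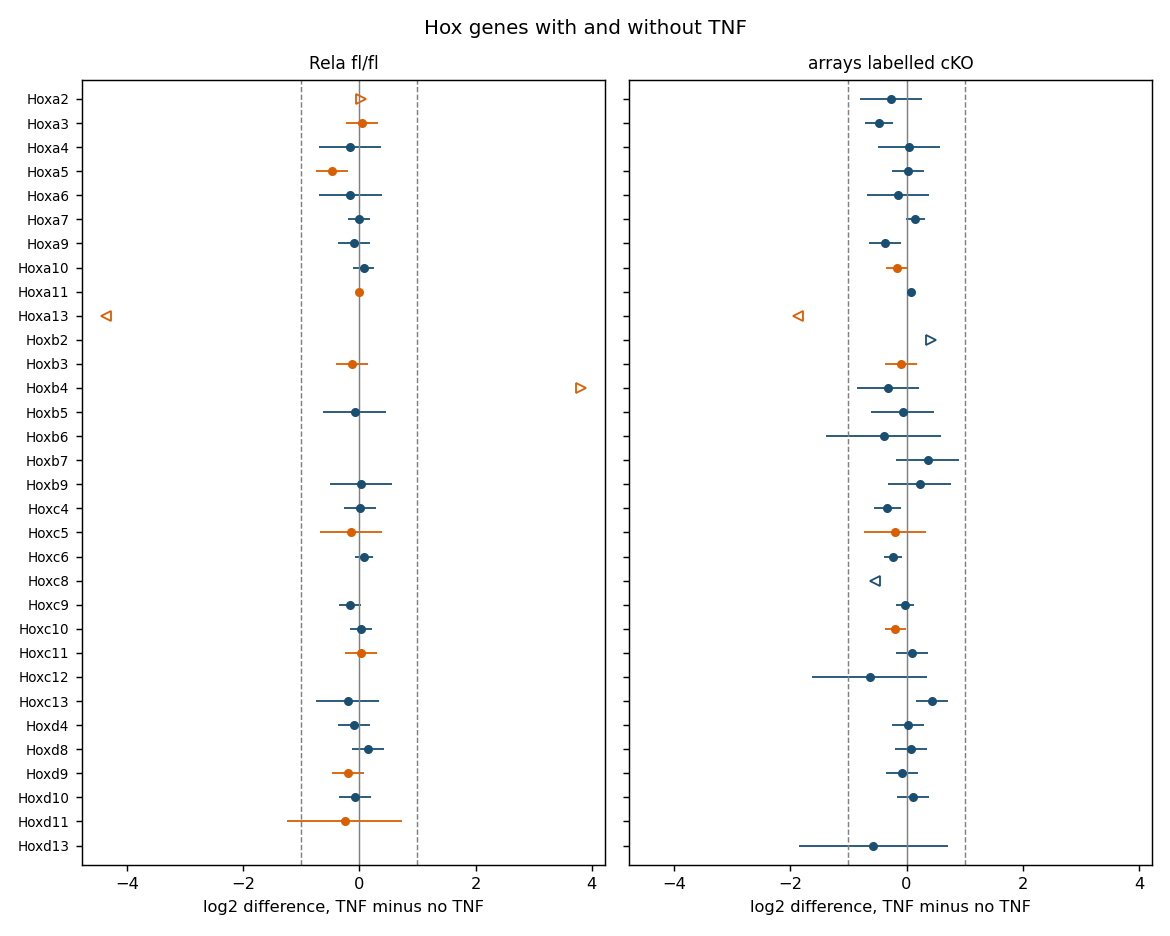
Log2 difference between the array with TNF and the array without it for the 32 Hox genes above background on any array, in Rela fl/fl (left) and on the cKO-labelled arrays (right). Points are genes well above background on both arrays with bars of 2 technical spreads, open triangles are bounds, orange marks a spot in a bright patch, dashed lines mark the limit of 1, and genes without a symbol had no value. Past the limit lie only Hoxa13 and Hoxb4 on the left and Hoxa13 on the right, all orange.

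For 22 members measured on all 4 arrays, the TNF difference on the cKO-labelled arrays minus that in Rela fl/fl had a median of 0.04 and ran from -0.52 for Hoxa3 to 0.63 for Hoxc13. It lay within 2 technical spreads for 17 members and past them for 5, beside 21.7% of all genes measured on all 4 arrays. Past them were Hoxc13, Hoxa5 and Hoxa11 on the higher side and Hoxa3 and Hoxc6 on the lower side. For Hoxc13 the TNF difference was -0.20 in Rela fl/fl and 0.43 on the cKO-labelled arrays. For Hoxa5 it was -0.48, with a patch, and 0.03. For Hoxa3 it was 0.046, with a patch, and -0.47, and for Hoxc6 0.08 and -0.23. For Hoxa11 it was -0.01 and 0.08, and the difference of these, 0.087, was between -0.025 and 0.034 under the other scalings. Under the other scalings Hoxa3, Hoxa5 and Hoxc6 stayed past 2 spreads, Hoxc13 only with quantile normalization and Hoxa11 in none, and Hoxa10, Hoxc4 and Hoxc10 passed in some. With 1 array per condition these differences were not tested.

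**Figure D3:**
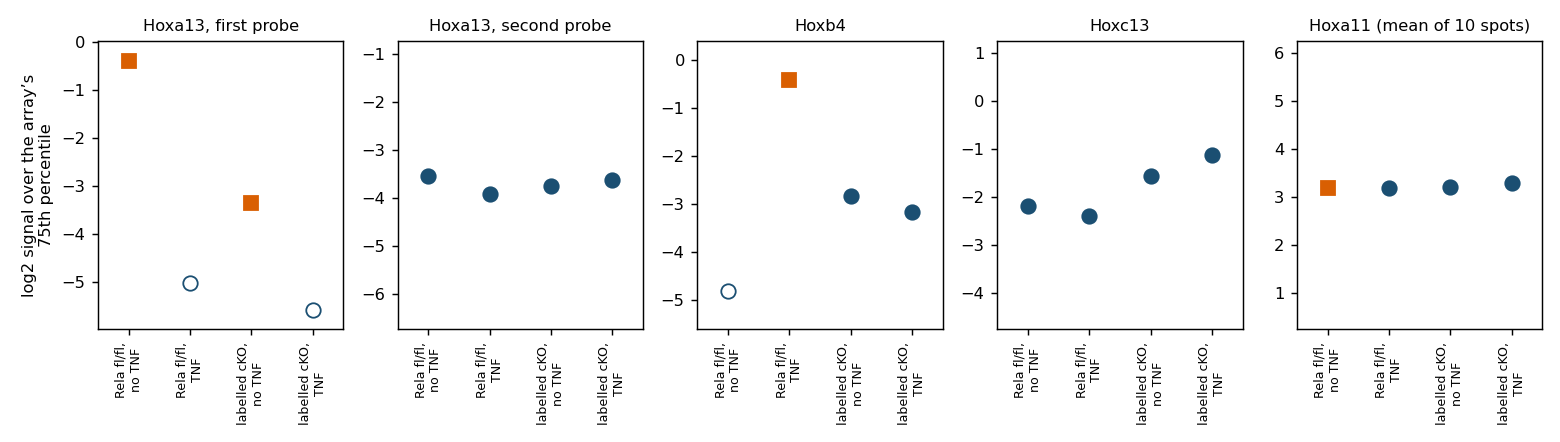
Log2 signal over the 75th percentile of the array for both Hoxa13 probes, Hoxb4, Hoxc13 and Hoxa11 on the 4 arrays, each panel spanning 6 log2 units with its own zero. Orange squares have a spot in a bright patch, and open symbols were not well above background. The high values of the first Hoxa13 probe and of Hoxb4 are orange squares, while the second Hoxa13 probe and Hoxa11 vary less.

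The genotype comparisons used the same 4 arrays as the TNF comparisons, so their values are not independent of those above. Without TNF, 2 of 31 Hox genes that could be called were higher on the cKO-labelled array and 1 was lower, beside 3.51% higher and 4.4% lower of 24277 genes. Hoxb4 was at least 2.65-fold higher and Hoxa2 at least 2.20-fold higher, each against a Rela fl/fl signal not well above background and with no patch on either array. Neither was called with normexp, where the differences were 0.74 and 0.35. Hoxa13 was 7.815-fold lower, with both spots in patches. Its difference of -2.97 was -2.02 with normexp. Of 23 members measured on both arrays, 6 differed by more than 2 technical spreads, beside 26.7% of all such genes. Apart from Hoxa13 these were all higher on the cKO-labelled array, namely Hoxc13 (0.64), Hoxc4 (0.51), Hoxa3 (0.47), Hoxc6 (0.35) and Hoxc10 (0.245).

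With TNF, 2 of 31 were higher and 1 was lower, beside 1.16% and 3.21% of 24513 genes. Hoxc13 was 2.41-fold higher with both signals well above background, and Hoxb7 was at least 2.39-fold higher. Neither was called with normexp, where the differences were 0.92 and 0.47. Hoxb4 was 6.66-fold lower, against the Rela fl/fl spot in a patch, and so went the opposite way from its difference without TNF. With normexp its difference of -2.735 was -1.93. Of 24 members measured on both arrays, 8 differed by more than 2 technical spreads, beside 27.0% of all such genes. Besides Hoxc13 and Hoxb4 these were Hoxa5 (0.58), Hoxa7 (0.32), Hoxd4 (0.32), Hoxc9 (0.27) and Hoxa11 (0.105) on the higher side and Hoxa10 (-0.23) on the lower side. Under the other scalings the Hoxa11 difference was between 0.043 and 0.062, on both sides of 2 spreads. Hoxd4 stayed past 2 spreads only with quantile normalization, and Hoxa10 in all but normexp. Of 22 members, 1 was past 2 technical spreads in the same direction in both genotype comparisons, Hoxc13. The share of all genes that did so was not counted, so this number cannot be judged as few or many. Which members passed rested on the scaling. Hoxa7 also passed in both under each of the 4 other scalings and Hoxc9 without scaling, while Hoxc13 did not with normexp.

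The median genotype difference of the Hox genes was 0.09 without TNF and 0.13 with it, beside 0.002 and 0.049 for all genes. All 7 measured genes of cluster C were higher on the cKO-labelled array, with medians of 0.35 without TNF and 0.235 with it, where 50.4% and 59.3% of all genes were higher. With TNF this held for 5 of 7 without scaling and in the authors' table, and for 6 of 7 with quantile normalization and with normexp. The other clusters had medians between -0.05 and 0.105. Between the same arrays, the osteoblast genes Ibsp (4.19, 3.505, 9.16 and 6.86) and Sp7 (0.0785, 0.0302, 0.127 and 0.129, the second not well above background) were higher in cKO-labelled cells. Among the 4 osteoblast markers, Dmp1 was not well above background on any array. The cartilage matrix gene Matn1 (90.4, 73.8, 25.0 and 32.4) was lower there, and of 13 chondrocyte markers 10 were lower by more than 2 technical spreads without TNF and 9 with it. Of 6 fibroblast markers 5 were lower in each. Over all genes these shares were 12.8% without TNF and 9.95% with it. Other markers called without TNF were Col9a2 (-1.07), Thy1 (-1.59), Sox6 (-1.11, in a patch), Tyrobp (at least 3.06-fold lower) and Adgre1 (2.87, in a patch). The part of cell makeup or sex in the Hox differences was not tested. In whole cultures, fewer cells of a type and less RNA per cell cannot be told apart.

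**Figure D4:**
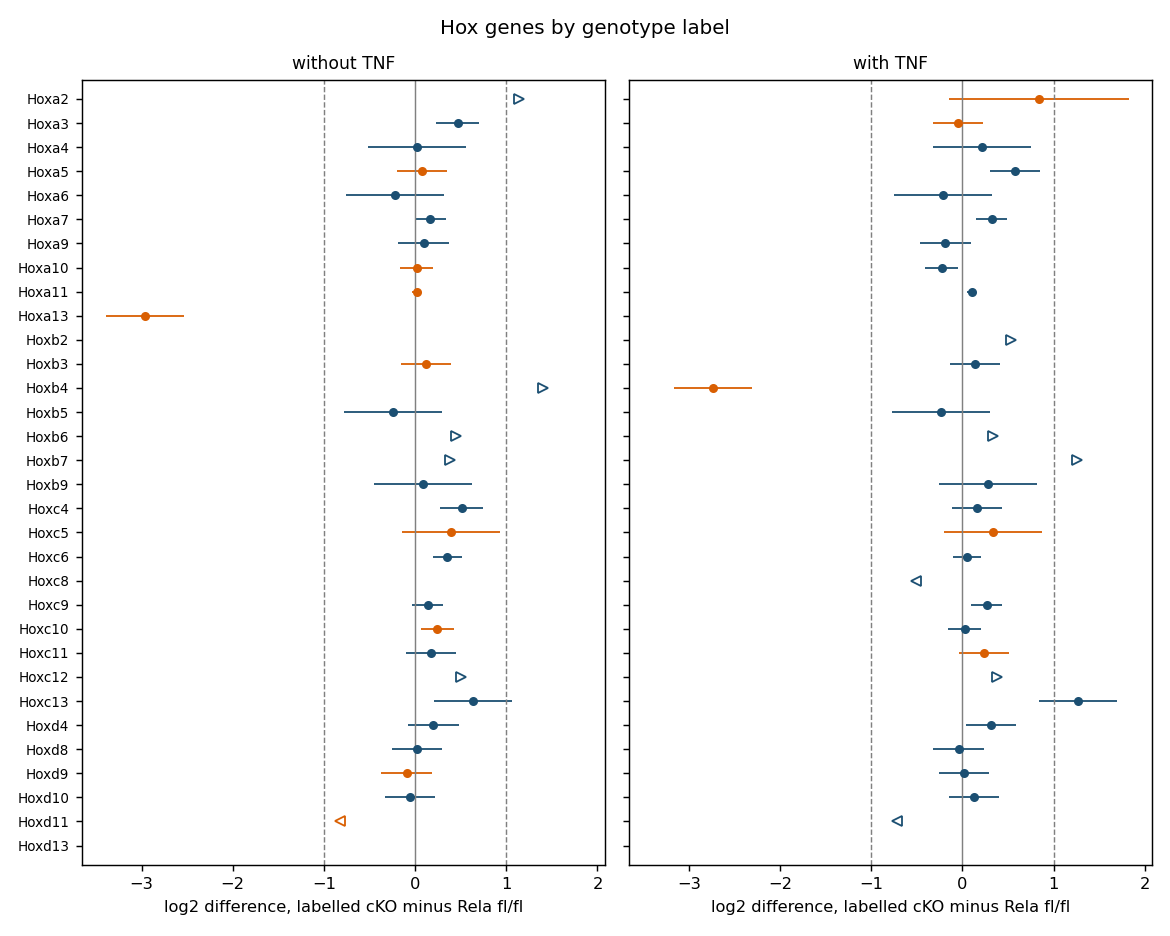
Log2 difference between the cKO-labelled array and the Rela fl/fl array for the 32 Hox genes above background on any array, without TNF (left) and with TNF (right). Points are genes well above background on both arrays with bars of 2 technical spreads, open triangles are bounds, orange marks a spot in a bright patch, dashed lines mark the limit of 1, and genes without a symbol had no value. The genes Hoxc4 to Hoxc13 with a point lie right of 0 on both sides, and Hoxc13 passes the limit with TNF.

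Limb identity is set upstream of and beside the Hox genes by other factors, of which 26 were listed and 21 were well above background on all 4 arrays. Tbx5 marks the forelimb, and Tbx4 and Pitx1 mark the hindlimb. Tbx5 had signals of 1.67, 1.63, 1.38 and 1.099, Tbx4 had 3.72, 4.30, 3.65 and 3.32, and Pitx1 had 45.1, 44.4, 42.15 and 46.0. All of them were above background on every array, so markers of both limbs were detected in each culture. Tbx5 was lower on the cKO-labelled arrays by -0.27 without TNF, where its spot lay in a patch, and by -0.57 with TNF, each past 2 technical spreads. Tbx4 was lower by -0.03 and -0.375, the second past 2 spreads, and Pitx1 differed by -0.10 and 0.05. Prrx1, whose promoter drives the Cre, had signals of 4.27, 4.515, 4.39 and 4.83, and Shox2, a gene of the upper limb segment, had 0.665, 0.464, 0.490 and 0.431. Shox2 was highest in Rela fl/fl cells without TNF, with a TNF difference of -0.52 there and -0.18 on the cKO-labelled arrays.

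None of these 26 factors was called with TNF in either genotype. In Rela fl/fl 22 could be called, beside 2.39% higher and 4.27% lower of all genes. On the cKO-labelled arrays 23 could be called, beside 1.02% and 4.46%. The median TNF differences of the factors were -0.002 and 0.03, beside 0.008 and 0.056 for all genes. Between genotypes, 1 of 23 that could be called was higher without TNF and 2 with it, beside 3.51% and 1.16% of all genes, and none was called lower, beside 4.4% and 3.21%. With so few genes, a count of 0 is near these shares. The Iroquois genes Irx3 and Irx5 act together in the early limb and lie next to each other in the genome. Irx5 had signals of 0.111, 0.123, 0.304 and 0.301, so it was 2.73-fold and 2.44-fold higher on the cKO-labelled arrays, untreated and treated. With normexp it was not called, with differences of 0.84 and 0.89. The first Irx5 spot lay in a patch. Irx3 had signals of 0.997, 0.977, 1.615 and 2.33 and was 2.39-fold higher on the treated cKO-labelled array than on its Rela fl/fl counterpart, with a genotype difference of 0.70 without TNF. Neither Irx3 nor Irx5 had a spot in a patch on the TNF-treated arrays.

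**Figure D5:**
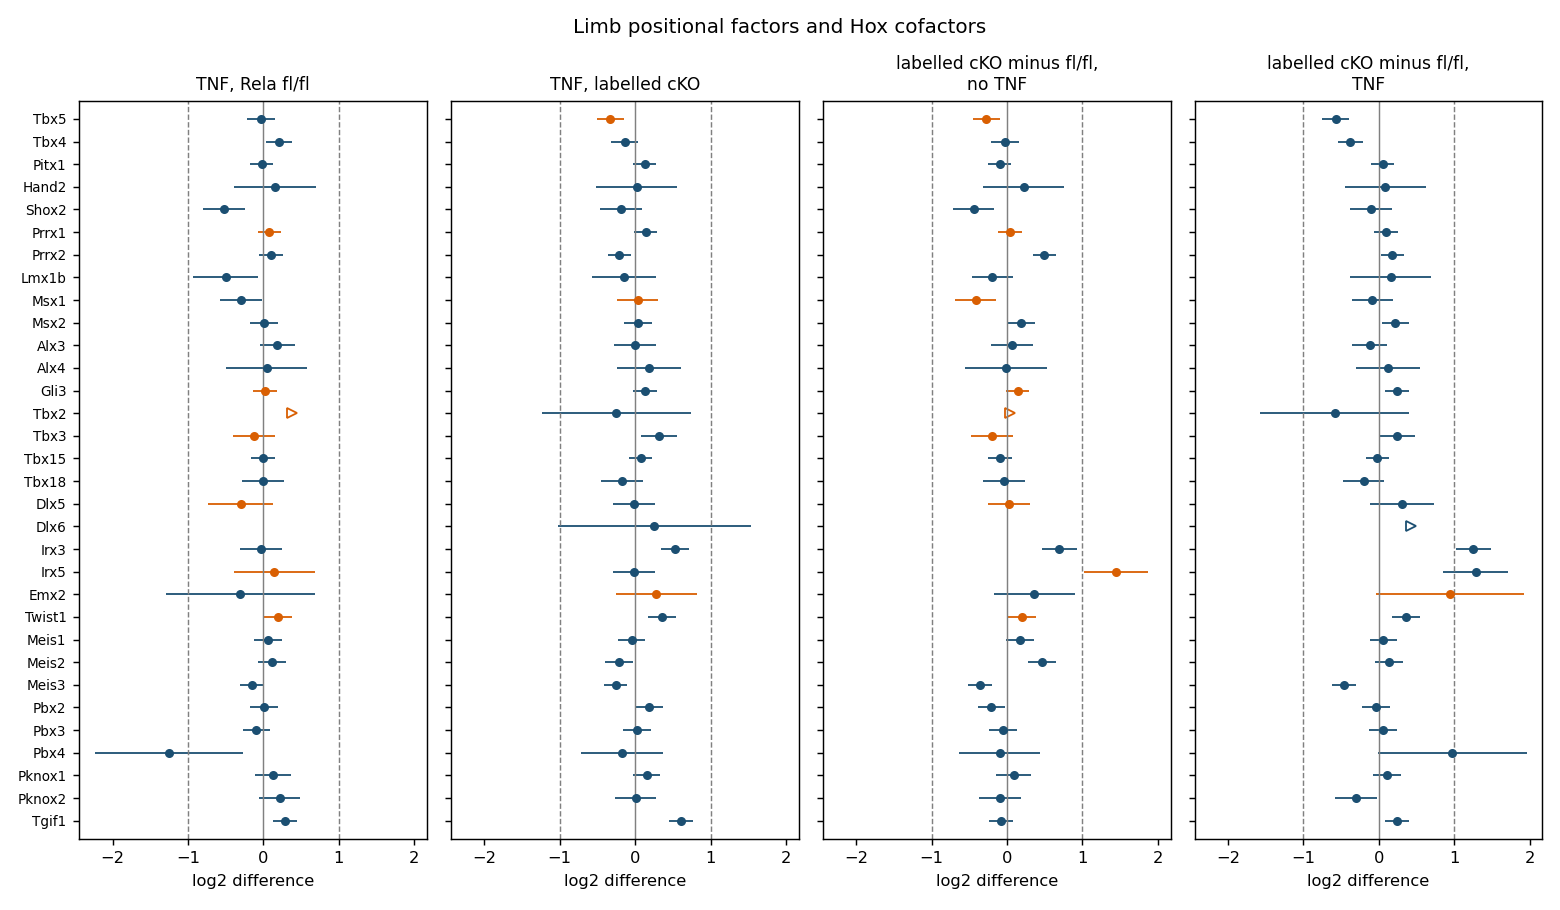
Log2 differences of limb positional factors (Tbx5 to Twist1) and of Hox cofactors (Meis1 to Tgif1) that were above background on any array, in the 4 comparisons. Points are genes well above background on both arrays with bars of 2 technical spreads, open triangles are bounds, orange marks a spot in a bright patch, and dashed lines mark the limit of 1. Past the limit lie Pbx4 with TNF in Rela fl/fl, Irx5 in both genotype comparisons and Irx3 in that with TNF.

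Hox proteins bind DNA together with cofactors of the TALE class, the Pbx, Meis and Pknox proteins, and all 9 TALE genes reported here were well above background on all 4 arrays. Meis1 had signals of 1.19, 1.25, 1.345 and 1.30, and Meis2 had 1.05, 1.13, 1.44 and 1.24. Pbx4 was the single one of these 9 called, lower with TNF in Rela fl/fl, where 4.27% of all genes were called lower. Over all comparisons and directions the shares of all genes ran from 1.02% to 4.46%. With 9 genes, counts of 0 or 1 are too small to set apart from them. Pbx4 had signals of 0.110, 0.0463, 0.103 and 0.0911 and a TNF difference of -1.25 in Rela fl/fl and -0.175 on the cKO-labelled arrays. Its technical spread in Rela fl/fl was 0.492, and with normexp its difference was -0.446 and not called. Meis3 was read by 3 probes, all well above background, that disagreed. The brightest was lower on the cKO-labelled arrays by -0.36 and -0.46, while the others differed by -0.04 and -0.07 and by -0.04 and 0.15. The repressor gene Tgif1 was higher with TNF by 0.285 and 0.61, each past 2 technical spreads.

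Polycomb and Trithorax proteins keep Hox genes silent or active through cell divisions. Of 18 measured, 17 were well above background on all arrays and none was called, beside 1.02% to 4.46% of all genes in each comparison and direction, so that a count of 0 among 17 is near the background. Kdm6b, a histone demethylase that removes the Polycomb mark, had signals of 3.71, 3.64, 3.50 and 3.50, and its TNF differences were -0.03 and 0.00. Kdm6a, the X-linked demethylase of the same mark, had signals of 0.362, 0.341, 0.224 and 0.227, lower on the cKO-labelled arrays by -0.69 and -0.59. The Polycomb gene Phc2 was higher with TNF by 0.55 on the cKO-labelled arrays and by 0.08 in Rela fl/fl. Of 9 genes of retinoic acid signalling and the Cdx family, which act upstream of Hox genes, 3 were well above background on all arrays and none was called. Only 3 to 5 of them could be called in each comparison, so a count of 0 is near the shares of all genes, 1.02% to 4.46%. Cyp26b1, which degrades retinoic acid in the limb, had signals of 3.94, 3.01, 5.97 and 4.39. It was lower with TNF in both genotypes, by -0.39 and -0.445, and higher on the cKO-labelled arrays by 0.60 and 0.54, each past 2 technical spreads.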

How the data were processed

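Cy3-labelled RNA of each condition was read on 1 array of a 1-colour Agilent mouse expression design. For each spot, the authors deposited the output of Agilent Feature Extraction 10.10.1.1, which holds a processed intensity (background-subtracted and spatially detrended) and flags for outliers and for signals well above background. Their deposited value table holds the same intensity times 1 factor per array. The basis of the factors is not given in the sources used here, and the table served as an alternative. The 4 arrays shared 1 slide and 1 scan.

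From the processed intensity of 59305 transcript spots per array, log2 values were formed and lowered by the 75th percentile over the spots not flagged as outliers. Outlier spots were dropped and repeated spots averaged. For genes with several probes, the brightest by mean log2 over all arrays was used. Symbols came from the RefSeq table of GRCm38.p6, which held 20435 of 20809 NM accessions of the array. The array files name mm9, and coordinates of that table are printed only with its own promoters. A probe was well above background where at least 50% of its spots were. A spot lay in a bright patch when 3 or more other spots within 5 rows and 2 columns were at least 2-fold brighter on its array than on each of the others, with log2 values under -4.5 raised to that.

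Technical spread was the pooled SD over spots of 399 probes with 10 spots, in 5 bins of signal, combined over both arrays. With 1 array per condition no test was run. Members, lists, the patch rule and the rule for named genes (members above background on all arrays or called, other listed genes that were called, and a set of landmark genes) were chosen with earlier results of these data known. The lists also held markers of skeletal muscle, endothelium, epidermis, osteoblasts and leukocytes. One listed cofactor gene is not reported here, and the counts for that list leave it out. Further genes are named where their values stand beside a result. Alternatives were no scaling, quantile normalization, normexp (offset 50) with quantile normalization, the authors' table, the mean over probes, every probe on its own, other filters, fold limits of 1.5 and 3, and patches left out. The counting rule was tested on simulated data. Known changes were placed there only in brighter genes above background on all arrays, and no patches were simulated. That test therefore does not bear on calls that rest on dimmer signals or on patches. Python 3.11.15 with numpy 2.4.6, pandas 2.3.3 and matplotlib 3.10.9 and R 4.3.3 with limma 3.58.1 were used.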

Additional observations from a re-analysis of the deposited data

How the results depend on the processing

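The number of Hox genes well above background on all arrays stayed within 1.5 times of 22 under each alternative run. Counts of called Hox genes were small, and those for TNF in Rela fl/fl (2), TNF on the cKO-labelled arrays (1), genotype without TNF (3) and genotype with TNF (3) moved as follows. Without the patches they were 0, 0, 0 and 2, over the 25 members left. Hoxa2 and Hoxb4, called without TNF from spots outside patches, were left out there for a spot on the treated Rela fl/fl array. Without patches of 6 or more neighbours the counts were 0, 0, 1 and 2, over 32. Requiring the background flag on both arrays gave 0, 0, 1 and 2, and dropping the filter gave 3, 2, 5 and 4. Limits of 1.5-fold and 3-fold gave 2, 2, 5 and 5, and 2, 1, 1 and 1. With normexp they were 2, 0, 1 and 1. Hoxa13 on the cKO-labelled arrays reversed from -1.87 with TNF to 0.14 under both patch rules, where only its second probe was left. Hoxb7 and Hoxc13 were still called with TNF under both patch rules, and neither was with normexp.

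The median difference of the Hox genes ranged from -0.113 to -0.014 for TNF in Rela fl/fl, from -0.2 to 0.03 for TNF on the cKO-labelled arrays, from 0.05 to 0.142 for genotype without TNF and from 0.07 to 0.19 with TNF. Without scaling, the all-gene median for TNF in cKO-labelled cells went from 0.056 to -0.046, and in the authors' table to -0.053. Of 620 further values of 20 genes recomputed under the alternatives, 572 changed by under 0.138, the pooled technical spread, 46 by more, and 2 belonged to a called gene that changed sign, Hoxa13 as above. Of the others, 27 also changed sign, none of them called and none larger than 0.175 in size. Over all 98 differences of Hox genes measured on both arrays, 27 changed sign under at least 1 of 4 other scalings, none larger than 0.199 in size. Under the 4 other scalings, the number of Hox genes past 2 technical spreads went from 1 to between 1 and 3 for TNF in Rela fl/fl, from 7 to between 5 and 8 on the cKO-labelled arrays, from 6 to between 6 and 9 for genotype without TNF and from 8 to between 6 and 9 with it. No paired analysis was possible because each comparison had 1 array a side with no second replicate number. Pairing across both comparisons, in an additive fit over genotype and TNF, could have been made and was not run. Dim probes limited what could be seen, since the spread of a difference was 0.642 at the lowest signals.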
